A study of Rattus norvegicus with 23 samples.

Results

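Mammary carcinomas that arose after radiation were compared with mammary carcinomas that arose spontaneously, over all miRNAs of a rat miRNA array, to find miRNAs whose levels differ between the 2 kinds of tumour. The comparison holds 16 of the 23 arrays of the series: the 8 arrays whose tissue label reads radiation-induced carcinoma and the 8 labelled spontaneous carcinoma. The 7 arrays of normal mammary tissue were left out of the test, but they entered the scaling and the floor. All samples came from female Sprague-Dawley rats, an outbred strain, and no genetic change is given for either kind. Each array holds total RNA of 1 tissue sample, labelled with the dye Cy3. The 16 carcinomas carry 16 different codes, and 5 of the spontaneous ones begin with K whereas the other 3 and all radiation-induced ones begin with M. The radiation dose, the ages of the rats and the meaning of the code letters are not given in the sources used here. The values below are log2 signals after scaling between arrays, floored at 3.29, the median over arrays of the lowest detected level. That lowest level was above the floor on every spontaneous array and below it on some radiation-induced ones. A miRNA was called where its adjusted p in limma's test (Benjamini-Hochberg over all tested miRNAs) was under 0.05.

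miRNAs are short RNAs that pair with messenger RNAs, mainly through their seed (bases 2 to 8), and lower the output of those messages. Several are switched on by p53, the transcription factor that responds to DNA damage such as that from ionizing radiation, and the miR-34 family is the best known of these. Others mark cell types of the mammary gland: the miR-200 family marks epithelial cells, and miR-143 and miR-145 are abundant in smooth muscle cells and fibroblasts.

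The mature sequences of the miRNAs on which the comparison turns are given from RefSeq (assembly GRCr8), with the seed in capitals. Of 26 array names looked up, 25 matched, and miR-99a had no match. The first set holds the 6 miRNAs that passed the test in the 16 carcinomas.
miR-125b-5p: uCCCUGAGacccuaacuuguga
miR-222: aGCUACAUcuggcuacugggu
miR-340-3p: uCCGUCUCaguuacuuuauagcc
miR-340-5p: uUAUAAAGcaaugagacugauu
miR-672: uGAGGUUGguguacuguguguga
miR-99b*: cAAGCUCGugucuguggguccg

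The second set shares a seed with one of those, or with its partner arm, and is shown because seed-sharing miRNAs did not all differ in one direction. miR-125a-5p has the seed of miR-125b-5p, and 7 of 22 positions differ between them. miR-100 and miR-99b share a seed and differ at 4 of 22 positions. miR-221 has the seed of miR-222, with 10 of 21 positions different.
miR-125a-5p: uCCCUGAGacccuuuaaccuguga
miR-100: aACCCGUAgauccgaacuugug
miR-99b: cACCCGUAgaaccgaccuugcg
miR-221: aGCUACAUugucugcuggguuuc

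The third set holds leading miRNAs that did not pass the test in all 16 carcinomas. It shows the 3 p53-induced miR-34 members with their common seed, and miR-194, which the study's title names. miR-103 and miR-107 differ at 1 of 23 positions, so an array probe may not tell them apart. miR-195 and miR-497 have a common seed, and that of miR-503, from another cluster, is close to it. miR-135b passed when slide was a block in the fit.
miR-34a: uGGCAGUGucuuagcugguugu
miR-34b: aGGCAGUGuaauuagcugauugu
miR-34c: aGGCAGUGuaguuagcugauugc
miR-194: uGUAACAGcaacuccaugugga
miR-135b: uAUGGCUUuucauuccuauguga
let-7i: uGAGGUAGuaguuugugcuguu
miR-103: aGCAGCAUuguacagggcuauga
miR-107: aGCAGCAUuguacagggcuauca
miR-195: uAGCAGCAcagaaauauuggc
miR-497: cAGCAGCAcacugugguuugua
miR-503: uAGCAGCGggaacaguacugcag

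The arrays of the 2 kinds differed in brightness, and 2 carcinomas stood apart from the rest. Radiation-induced arrays detected 169 to 206 miRNAs (mean 188, SD 10.6, n = 8), whereas spontaneous arrays detected 154 to 174 (mean 164, SD 7.27, n = 8; exact two-sided permutation p = 0.000466, adjusted over 3 such tests 0.000699). The 75th percentile of signal before scaling was 1161 ± 393 against 604 ± 175 (SD, n = 8 and 8, the same exact p). In both measures 8 of 8 radiation-induced arrays lay above the spontaneous mean. Slides 1 and 2 hold spontaneous carcinomas alone (2 and 3) and slide 3 holds 5 radiation-induced ones. Slide 4 holds 3 of each kind, and its 3 spontaneous carcinomas are those with M codes. Outside slide 4, slide and kind of carcinoma therefore cannot be told apart. On slide 4 the differences were 17.3 miRNAs detected and 344 in the percentile (exact p = 0.2 for both), where 3 against 3 arrays cannot give an exact p under 0.1.

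In spontaneous carcinoma 1 and radiation-induced carcinoma 3, all 5 members of the epithelial miR-200 family lay at the floor of 3.29, although the labels call both samples mammary carcinomas. The median level of the 5 members was between 11.0 and 12.1 in the other 14 carcinomas. Fewer epithelial cells and less miRNA per cell cannot be told apart in such bulk samples. These 2 arrays also lay far from the rest along the first principal component of the tested miRNAs, which held 42.3% of the variance. Results are therefore given both ways.

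**Figure D1:**
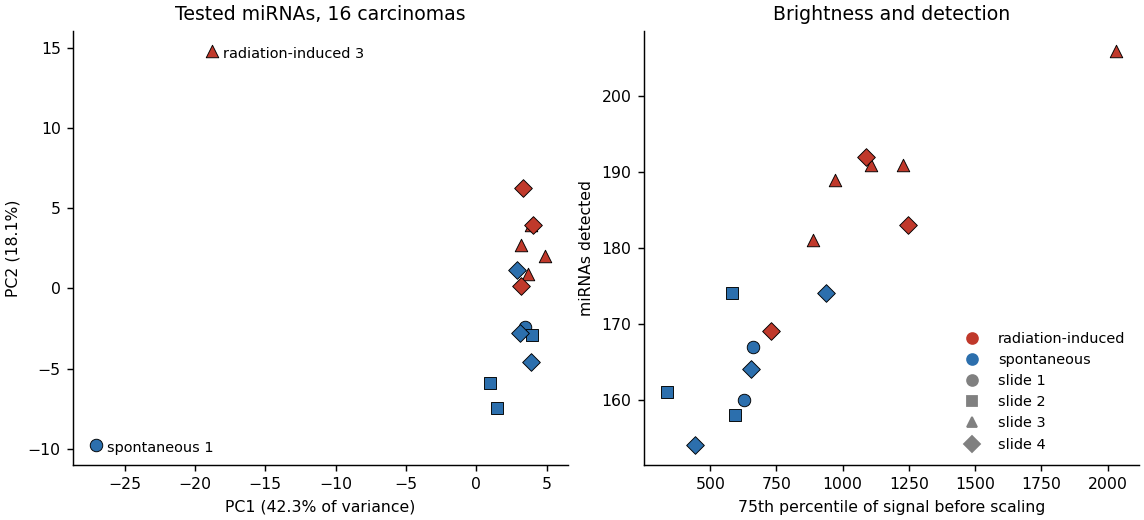
The left plot places the 16 carcinoma arrays on the first 2 principal components of the tested miRNAs (42.3% and 18.1% of the variance), and the right plot sets the number of miRNAs detected against the 75th percentile of signal before scaling. Colour gives the kind of carcinoma and the marker shape gives the slide: spontaneous carcinoma 1 and radiation-induced carcinoma 3 stand apart on the left, and radiation-induced arrays are brighter and detect more miRNAs on the right.

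Among 180 miRNAs detected on at least 8 of the 16 carcinoma arrays, 6 passed the test (3.33%): miR-125b-5p and miR-222 were higher in radiation-induced carcinomas, and miR-340-3p, miR-340-5p, miR-672 and miR-99b* were lower. All 6 had an adjusted p of 0.0487. At an unadjusted p under 0.05 there were 52 (28.9%), 22 of them higher (12.2%) and 30 lower (16.7%). The median difference over the 180 was 0.00 on the log2 scale, with 91 above 0 and 89 below. The values of the 2 kinds did not overlap for 3 miRNAs (1.67%). These were miR-125b-5p and let-7i on the higher side and miR-107 on the lower side. For miR-107 the nearest values, 10.1847 and 10.1848, were all but equal. Beyond the 6, the 22 remaining miRNAs among the 14 leading ones in each direction had adjusted p from 0.0581 to 0.0886.

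The number of calls depended on single carcinomas, on which arrays entered and on the processing. When 1 array was left out, it ran from 0 to 24, with 24 without spontaneous carcinoma 1, 20 without radiation-induced carcinoma 6 and 0 without any 1 of spontaneous carcinomas 3 to 6 or radiation-induced carcinomas 2, 7 and 8. Without both carcinomas lacking miR-200, 21 of 180 passed (11.7%), 8 higher and 13 lower, and all 6 were among them. When the 7 normal arrays also informed the spread, 35 of 180 passed (19.4%). With slide as a block, which leaves the comparison of 3 against 3 on slide 4, 1 of 180 passed (0.556%), and this was miR-135b, outside the 6. In the block fit without the carcinomas lacking miR-200, 4 of 180 passed (2.22%): miR-222, miR-125b-5p, miR-135b and miR-483. In a fit of the 6 slide 4 arrays alone 5 of 180 passed (2.78%), these 4 and miR-598-3p. With each array's brightness (its 75th percentile) as a covariate, 0 of 180 passed in limma (0%, 8 at an unadjusted p under 0.05). Brightness and kind of carcinoma went together across the arrays, so this fit can hardly tell them apart. With a filter of detection on at least 7 of all 23 arrays, 0 of 199 passed in limma (0%, 58 at an unadjusted p under 0.05). With scaling and floor taken from the 16 carcinomas alone, 0 of 180 passed in limma (smallest adjusted p = 0.0585). Quantile normalization, a filter of at least 4 of 16 arrays and no filter also gave 0 calls.

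**Figure D2:**
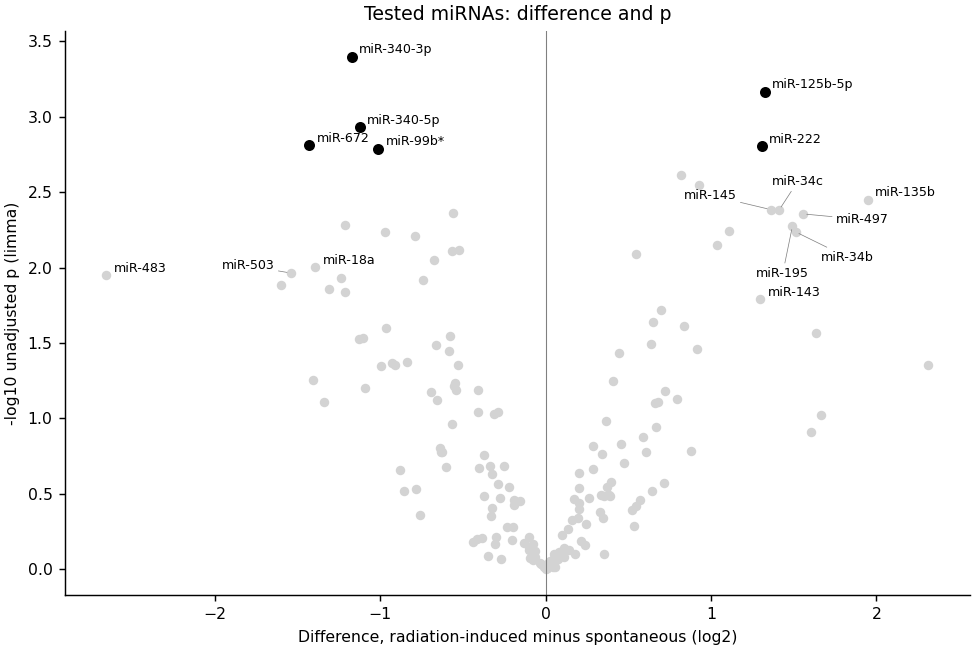
Each point is 1 of the 180 tested miRNAs, with its log2 difference (radiation-induced minus spontaneous, n = 8 and 8) across and -log10 of its unadjusted limma p upward. Black points are the 6 with an adjusted p under 0.05, and labels mark leading miRNAs, among which miR-483 has the largest difference (-2.65) without passing.

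miR-125b-5p, the vertebrate counterpart of worm lin-4 and known to target the p53 message in human and zebrafish cells, rose 2.50-fold. Its level ran from 11.85 to 13.86 in radiation-induced carcinomas (median 12.25) and from 9.85 to 11.66 in spontaneous ones (median 11.34). Every radiation-induced carcinoma lay above every spontaneous one. The difference was 1.32 ± 0.32 on the log2 scale (SE, 95% interval 0.65 to 2.00), and both of its probes gave values near 1.33. The highest value was in radiation-induced carcinoma 3 and the lowest in spontaneous carcinoma 1, the 2 that lack miR-200. Without them the difference was 0.94 (adjusted p = 0.0123).

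miR-222, which in human cells targets the cell cycle inhibitor p27, rose 2.47-fold. It ran from 4.32 to 6.20 in radiation-induced carcinomas (median 5.01) and from 3.29 to 5.56 in spontaneous ones (median 3.54). It was detected in 8 of 8 radiation-induced carcinomas and in 1 of 8 spontaneous ones, spontaneous carcinoma 1, and the other 7 spontaneous carcinomas lay below every radiation-induced one. The difference was 1.31 ± 0.35 (SE, interval 0.57 to 2.04), and 1.40 without the carcinomas lacking miR-200 (adjusted p = 0.00231). With normexp background correction, an alternative treatment of dim spots, it was -0.30, where the median of all tested miRNAs was -0.36 and miR-222 lay 0.06 above that median. With brightness as a covariate the difference was 1.22 (adjusted p = 0.693). With a floor raised to the highest detection level of any array, miR-222 lay 0.31 above the median of all tested miRNAs there (-0.04) and did not pass. The part of the dimmer spontaneous arrays in this difference was not tested. The neighbouring miR-221, brighter and detected on all 16 arrays, ran from 8.10 to 10.42 (median 8.50) against 7.05 to 8.89 (median 7.88). Its difference of 1.11 ± 0.35 had an adjusted p of 0.0581, and 0.0192 without the carcinomas lacking miR-200.

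Both arms of the miR-340 hairpin, which restrains migration of human breast cancer cells in culture, fell. miR-340-3p ran from 3.71 to 5.25 in radiation-induced carcinomas (median 4.47) and from 4.95 to 6.12 in spontaneous ones (median 5.95). miR-340-5p ran from 4.16 to 5.91 (median 4.99) against 5.50 to 6.62 (median 6.34). In both arms the ranges overlapped, and 0 of 8 radiation-induced carcinomas lay above the spontaneous mean. The falls were 2.25-fold for the 3p arm (log2 -1.17 ± 0.27, SE) and 2.18-fold for the 5p arm (-1.12 ± 0.29). The values on slide 4 were alike, -1.17 and -1.19, with adjusted p of 0.386 and 0.421 with slide as a block.

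miR-672 fell 2.69-fold (log2 -1.43 ± 0.38, SE, interval -2.23 to -0.63). It ran from 6.41 to 8.51 in radiation-induced carcinomas (median 6.65) and from 7.63 to 9.98 in spontaneous ones (median 7.99). Radiation-induced carcinoma 4, at 8.51, was the only one within the spontaneous range. On slide 4 the difference was -2.24 (adjusted p = 0.101).

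miR-99b*, the less studied arm of the miR-99b hairpin, fell 2.01-fold (log2 -1.01 ± 0.27, SE). It ran from 3.29 to 4.17 in radiation-induced carcinomas (median 3.58), 2 of which lay at the floor, and from 3.82 to 5.72 in spontaneous ones (median 4.58). The ranges overlapped, and 0 of 8 radiation-induced carcinomas lay above the spontaneous mean. Its 4 probes gave differences from -1.01 to -0.17. It was detected in 6 of 8 carcinomas of each kind. With the raised floor its difference from the median of all tested miRNAs there was -0.14, and it did not pass. Its adjusted p with slide as a block, 0.755, was the highest of the 6, and that of miR-222, 0.0925, the lowest. All 6 kept their direction in each refit that left out 1 array, and passed in 5 (miR-672) to 9 (miR-340-3p) of these 16 refits.

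**Figure D3:**
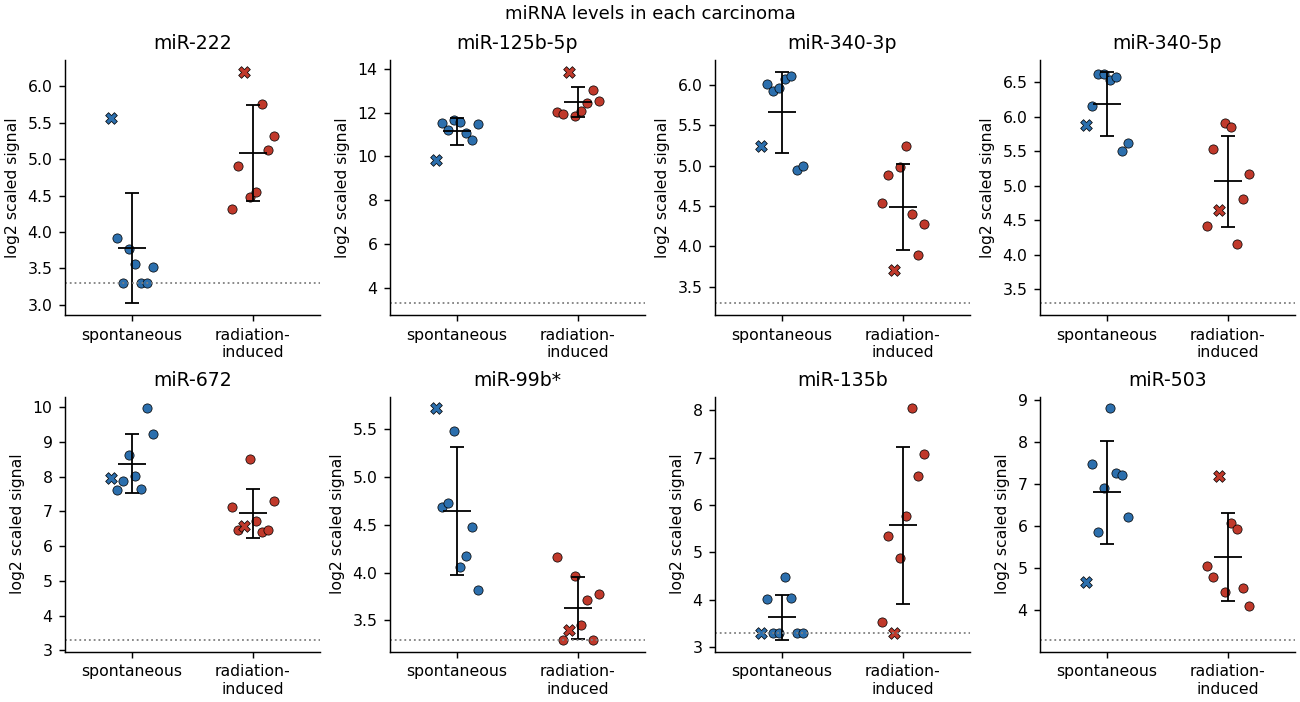
Each panel gives the log2 scaled signal of 1 miRNA in the 8 spontaneous (blue) and 8 radiation-induced (red) carcinomas, with the mean and SD as bars and the floor of 3.29 as a dotted line. Crosses mark the 2 carcinomas lacking miR-200: the 6 called miRNAs, miR-135b and miR-503 are shown, and miR-125b-5p is the one among these 8 whose kinds do not overlap.

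The family of miR-99, miR-100 and miR-125 was split between directions. Its genes lie in clusters with let-7 genes: RefSeq places miR-100 and a miR-125b gene on either side of let-7a-2, and miR-99b and miR-125a on either side of let-7e. The miR-99 members target the growth kinase mTOR in human cells. Of 8 tested members, 1 passed as higher (1.11% of all tested miRNAs) and 1 as lower (2.22%), 4 lay above 0 and 4 below, and the median was 0.05, against 0.00 over all tested miRNAs. miR-100 ran from 6.88 to 8.37 in radiation-induced carcinomas (median 7.15) and from 5.74 to 7.09 in spontaneous ones (median 6.58), a difference of 0.93 ± 0.27 (SE, adjusted p = 0.0581). miR-99b, with the seed of miR-100, ran from 6.91 to 7.69 (median 7.39) against 7.32 to 8.45 (median 7.98), a difference of -0.57 ± 0.19 (adjusted p = 0.0639, and 0.0222 when those lacking miR-200 were left out). The same split stood between miR-125b-5p, at 1.32, and miR-125a-5p, which has its seed, at -0.37 ± 0.26 (adjusted p = 0.376). miR-99a, which was picked after its value was seen, had a difference of 0.80 ± 0.42 (adjusted p = 0.215). In the unscaled signals, where the median of all tested miRNAs was 0.85, miR-99b and miR-125a-5p lay above 0 (0.37 and 0.57) but below that median.

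let-7i, a member of the let-7 family that restrains RAS and HMGA2 messages, was higher in every radiation-induced carcinoma than in any spontaneous one, without passing. It ran from 11.55 to 12.47 (median 11.92) against 10.31 to 11.52 (median 11.36), a difference of 0.82 ± 0.23 (SE, adjusted p = 0.0581, 0.039 when those lacking miR-200 were left out). The 7 other tested let-7 members lay between -0.22 (let-7e) and 0.40 (let-7c). Of the 8, none passed, 4 lay above 0 and 4 below, and the median was -0.04.

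miR-135b, which targets the tumour suppressor APC in human colon cells, differed by 1.95 ± 0.57 over the 16 carcinomas (SE, 3.85-fold, adjusted p = 0.0581). It was detected in 7 radiation-induced carcinomas and in 1 spontaneous one. The levels ran from 3.29 to 8.05 (median 5.56) against 3.29 to 4.47 (median 3.29), so the lowest radiation-induced carcinomas overlapped the spontaneous ones. On slide 4 the 3 radiation-induced carcinomas had 8.05, 6.61 and 7.08, and the 3 spontaneous ones 4.04, 3.29 and 3.29. This difference of 3.70 ± 0.64 (SE) was the one that passed with slide as a block (adjusted p = 0.00913). Over the 14 carcinomas with miR-200 the difference was 2.22 (adjusted p = 0.0159). With normexp over all 16 it was 0.11 (adjusted p = 0.822), or 0.47 above the median of all tested miRNAs there. With the raised floor miR-135b lay 1.09 above that setting's median and did not pass. With brightness as a covariate its difference was 2.27 (adjusted p = 0.693). On slide 3 the 5 radiation-induced carcinomas ran from 3.29 to 5.77, all below the 3 on slide 4.

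Members of the p53-responsive list lay mostly on the higher side, but none passed. Of its 8 tested members, 7 lay above 0, each at an unadjusted p under 0.05 (12.2% of all tested miRNAs), and miR-107 lay below 0 at an unadjusted p of 0.00437 (16.7% of all were below 0.05 on that side). The list's median was 1.11, against 0.00 over all tested miRNAs, and 0.87 without the carcinomas lacking miR-200. In that setting 1 member passed, miR-145 (adjusted p = 0.0329), where 8 of all 180 tested miRNAs passed as higher. The list's members were chosen with earlier results of these data known, and miR-143 and miR-145 also stand on the list of smooth muscle and fibroblast markers.

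In the miR-34 family, miR-34b ran from 6.69 to 7.99 in radiation-induced carcinomas (median 7.44) and from 3.29 to 7.53 in spontaneous ones (median 6.23). Its difference was 1.51 ± 0.48 (SE, adjusted p = 0.0581), and 8 of 8 radiation-induced carcinomas lay above the spontaneous mean. miR-34c, from the same transcript, ran from 5.81 to 6.94 (median 6.39) against 3.29 to 6.64 (median 5.04), a difference of 1.41 ± 0.43 (adjusted p = 0.0581). Both were tightly grouped in radiation-induced carcinomas and widely spread in spontaneous ones, with SDs of 0.43 and 0.47 against 1.36 and 1.17. miR-34a, encoded elsewhere, ran from 9.44 to 10.68 (median 10.08) against 6.59 to 10.22 (median 9.46), a difference of 0.92 ± 0.40 (adjusted p = 0.142). Spontaneous carcinoma 1 had the lowest value of all 3. Without the carcinomas lacking miR-200 the differences were 1.10, 1.13 and 0.47 for miR-34b, miR-34c and miR-34a (adjusted p = 0.0608, 0.0716 and 0.108).

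miR-194, named in the study's title, had 4.37 ± 0.46 in radiation-induced and 3.71 ± 0.55 in spontaneous carcinomas (SD, n = 8 and 8). It ran from 3.60 to 4.85 (median 4.55) against 3.29 to 4.75 (median 3.50), and was detected in 7 and 3 of 8 carcinomas. The ranges overlapped, with 7 of 8 radiation-induced carcinomas above the spontaneous mean. The difference of 0.65 ± 0.26 (SE, 1.57-fold) did not pass in limma (adjusted p = 0.118), while the exact permutation test of this miRNA alone gave p = 0.0264. With normexp it was -0.52 and passed as lower in limma (adjusted p = 0.0234), where the median of all tested miRNAs was -0.36. It was 0 with a floor raised to the highest detection level of any array. Without scaling it was 1.16, or 0.31 above the median of all. With brightness as a covariate it was 0.66 (adjusted p = 0.693), where the median of all was 0.19. miR-192, encoded beside a miR-194 gene, differed by 0.44 ± 0.20 (SE, adjusted p = 0.144), and by -0.48 with normexp (adjusted p = 0.0265).

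The smooth muscle and fibroblast markers all lay above 0. Of 6 tested, none passed (1, miR-145, without the carcinomas lacking miR-200), 2 had an unadjusted p under 0.05 (12.2% of all on the higher side), and the median was 0.80, against 0.00 over all tested miRNAs. Each of the 6 was detected on at least 1 carcinoma array, but miR-145 in 8 of 8 radiation-induced and only 4 of 8 spontaneous carcinomas. The log2 of the summed signal of the 6 ran from 12.58 to 14.66 in radiation-induced carcinomas (median 13.31) and from 11.46 to 13.25 in spontaneous ones (median 12.55). miR-145 ran from 4.48 to 6.62 (median 5.98) against 3.29 to 5.26 (median 4.28), a difference of 1.36 ± 0.41 (SE, adjusted p = 0.0581, and 0.0329 without the carcinomas lacking miR-200). With normexp it was -0.10, which lay 0.26 above the median of all tested miRNAs there (-0.36). Its genomic neighbour miR-143 ran from 11.77 to 13.73 (median 12.67) against 9.84 to 12.73 (median 11.82), a difference of 1.30 ± 0.49 (adjusted p = 0.0886). miR-199a-5p and miR-152 differed by 0.88 and 0.66 (adjusted p = 0.367 and 0.279). The part of stromal cells in the other differences was not tested.

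Markers of other cell types gave no call. The 5 miR-200 members had a median of 0.04 and the 6 epithelial lineage miRNAs -0.40, with miR-205 at 1.67 (adjusted p = 0.244). Of 6 leukocyte miRNAs all lay above 0 with a median of 0.29, which was -0.05 once the carcinomas lacking miR-200 were left out. The 3 tested endothelial miRNAs had a median of 0.24. Both erythroid miRNAs and the single tested striated muscle miRNA, miR-206, lay below 0 (median -1.01 and difference -1.12), and miR-133a was not well above background on any carcinoma array.

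miR-103 and miR-107, encoded within pantothenate kinase genes and on the list of adipose and metabolic miRNAs, lay below 0 with small spread. Of the 4 tested members of that list none passed, 2 lay above 0 and 2 below, and the median was -0.26. miR-107 ran from 9.71 to 10.18 in radiation-induced carcinomas (median 9.96) and from 10.18 to 11.05 in spontaneous ones (median 10.41), without overlap. The nearest values, 10.1847 in radiation-induced carcinoma 6 and 10.1848 in spontaneous carcinoma 5, were all but equal. The difference was -0.56 ± 0.17 (SE, adjusted p = 0.0581). miR-103 ran from 9.62 to 10.18 (median 9.93) against 10.15 to 11.17 (median 10.31), a difference of -0.52 ± 0.17 (adjusted p = 0.0639). Without scaling both lay above 0 (0.38 and 0.41), again below the median of 0.85 over all tested miRNAs. miR-335, also on that list, lay on the higher side, at 1.64 ± 0.67 (adjusted p = 0.128), and passed when the carcinomas lacking miR-200 were left out (1.58, adjusted p = 0.039).

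Regulators of cell proliferation lay on both sides. miR-195 and miR-497, neighbours that share the seed of the miR-15 and miR-16 group and target cyclins, had close levels in each carcinoma. miR-497 ran from 9.74 to 11.72 (median 11.40) against 7.20 to 11.06 (median 9.98), and differed by 1.56 ± 0.47 (SE, adjusted p = 0.0581). miR-195 ran from 9.72 to 11.73 (median 11.20) against 7.18 to 10.94 (median 9.89), and differed by 1.49 ± 0.47 (adjusted p = 0.0581). The 2 other tested members, miR-16 and miR-15b, differed by -0.07 and -0.41 (adjusted p = 0.873 and 0.242). On slide 4 miR-497 and miR-195 differed by 0.65 and 0.64 (adjusted p = 0.832 for both).

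miRNAs of the polycistron from miR-17 to miR-92, an oncogenic target of MYC, and of its paralogous clusters lay below 0 in all 9 tested members. None passed, 5 had an unadjusted p under 0.05 (16.7% of all tested miRNAs on the lower side), and the median was -0.64, against 0.00 over all tested miRNAs. miR-18a ran from 5.08 to 8.15 (median 6.60) against 6.58 to 10.33 (median 7.85), a difference of -1.39 ± 0.48 (SE, adjusted p = 0.0719). miR-93, of the paralogous cluster, ran from 7.99 to 9.47 (median 9.00) against 8.96 to 10.57 (median 9.79), a difference of -0.79 ± 0.25 (adjusted p = 0.0588). The list rested partly on the 2 carcinomas lacking miR-200: spontaneous carcinoma 1 had the highest miR-18a (10.33) and radiation-induced carcinoma 3 the lowest (5.08). Without them the median was -0.26, and on slide 4 it was 0.03.

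The X-linked cluster that runs from miR-322 to miR-450a, known in the mouse for a role in mammary involution after lactation, lay below 0 in all 6 tested members. In the 16 carcinomas none passed, and the median was -1.17. Without the carcinomas lacking miR-200, 6 of 6 passed as lower, in a setting where 13 of all 180 tested miRNAs passed as lower (7.22%). miR-503 ran from 4.11 to 7.20 in radiation-induced carcinomas (median 4.92) and from 4.68 to 8.81 in spontaneous ones (median 7.07), a difference of -1.54 ± 0.54 (SE, adjusted p = 0.0745). Without the 2 carcinomas it was -2.12 (adjusted p = 0.00991). The highest radiation-induced value, 7.20, was in radiation-induced carcinoma 3, and the lowest spontaneous value, 4.68, in spontaneous carcinoma 1. miR-450a went from -1.23 to -1.73 when both were left out (adjusted p from 0.0745 to 0.00619). The values of miR-542-3p, miR-542-5p, miR-322 and miR-322* without both were -1.78, -1.60, -1.17 and -1.46, with adjusted p from 0.0123 to 0.0159. The members come from 1 genomic cluster, and their values on slide 4 had a median of -1.38.

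miR-483, encoded in an intron of the growth factor gene Igf2, had the largest difference of all tested miRNAs below 0, at -2.65 ± 0.93 (SE, 6.29-fold, interval -4.62 to -0.69, adjusted p = 0.0745). It ran from 3.29 to 7.16 in radiation-induced carcinomas (median 3.78) and from 3.92 to 10.32 in spontaneous ones (median 7.97). It was detected in 5 radiation-induced and 6 spontaneous carcinomas, so the fold rests partly on values near the floor. With the raised floor its difference from that setting's median was -1.94, and it did not pass. With normexp the difference was -1.91 (adjusted p = 0.00851 in limma), where the median of all tested miRNAs was -0.36. Spontaneous carcinomas fell into high values (7.97 to 10.32 in 5 of them) and low ones (3.92 to 4.48 in the other 3). On slide 4 the radiation-induced carcinomas had 3.74, 3.61 and 3.82 and the spontaneous ones 7.98, 8.62 and 10.32, a difference of -5.25 ± 1.35 (SE, adjusted p = 0.1 with slide as a block, 0.04 when the carcinomas lacking miR-200 were also left out, and 0.00559 in a fit of slide 4 alone). Against the M-coded spontaneous carcinomas alone it was the 1 miRNA of 180 that passed (0.556%).

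The remaining leading miRNAs on the lower side were miR-333, miR-484 and miR-212. miR-484 ran from 4.11 to 5.33 (median 4.51) against 5.10 to 7.33 (median 5.28), a difference of -0.97 ± 0.31 (SE, adjusted p = 0.0581), though its other probe gave -0.05. miR-212, which is induced with miR-132 by the transcription factor CREB, differed by -0.67 ± 0.23 (adjusted p = 0.0673, and 0.0238 without the carcinomas lacking miR-200). miR-333 differed by -1.21 ± 0.38 (adjusted p = 0.0581) and was detected in 5 carcinomas of each kind. Most of its radiation-induced values lay at the floor. Relative to each setting's median, its difference was -0.34 with the mean of all probes and -0.28 with the raised floor, without passing. Of the imprinted Dlk1-Dio3 cluster, 2 of 40 miRNAs on the array were tested, miR-539 at -1.21 and miR-494 at -0.91 (adjusted p = 0.0812 and 0.156). miR-7a and miR-7a*, picked after their values were seen, differed by -0.74 and -0.58 (adjusted p = 0.0745 and 0.132).

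On the higher side, the collagen-targeting miR-29 family lay above 0 in 4 of 4 tested members without a call. miR-29a ran from 11.74 to 13.30 (median 12.72) against 9.80 to 12.40 (median 11.89), a difference of 1.04 ± 0.34 (SE, adjusted p = 0.0639, and 0.0128 without the carcinomas lacking miR-200). miR-29b and miR-29c differed by 0.72 and 0.68 (adjusted p = 0.198 and 0.215). miR-499, a muscle miRNA encoded in a myosin gene, differed by 0.55 ± 0.18 (adjusted p = 0.0639) and was near the floor, detected in 7 and 1 of 8 carcinomas, and its other probe gave 0.00.

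Beside miR-135b, the 3 tested miRNAs of the carcinoma-linked list gave no call in the 16 carcinomas. miR-21, an inhibitor of the tumour suppressor message Pdcd4, differed by 0.59 ± 0.37 (SE, interval -0.20 to 1.37, adjusted p = 0.318). miR-31 differed by 1.60 ± 0.99 (interval -0.48 to 3.69, adjusted p = 0.299) and lay at the floor in both carcinomas lacking miR-200. miR-210, induced by hypoxia, differed by -0.30 ± 0.58 (interval -1.52 to 0.92, adjusted p = 0.829), and by 1.46 on slide 4. The miR-30 family, the miR-181 family, the group of miR-23, miR-27 and miR-24, and the miRNAs of the Hox clusters had medians of 0.20, 0.08, 0.20 and 0.10, with no member at an unadjusted p under 0.05.

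**Figure D4:**
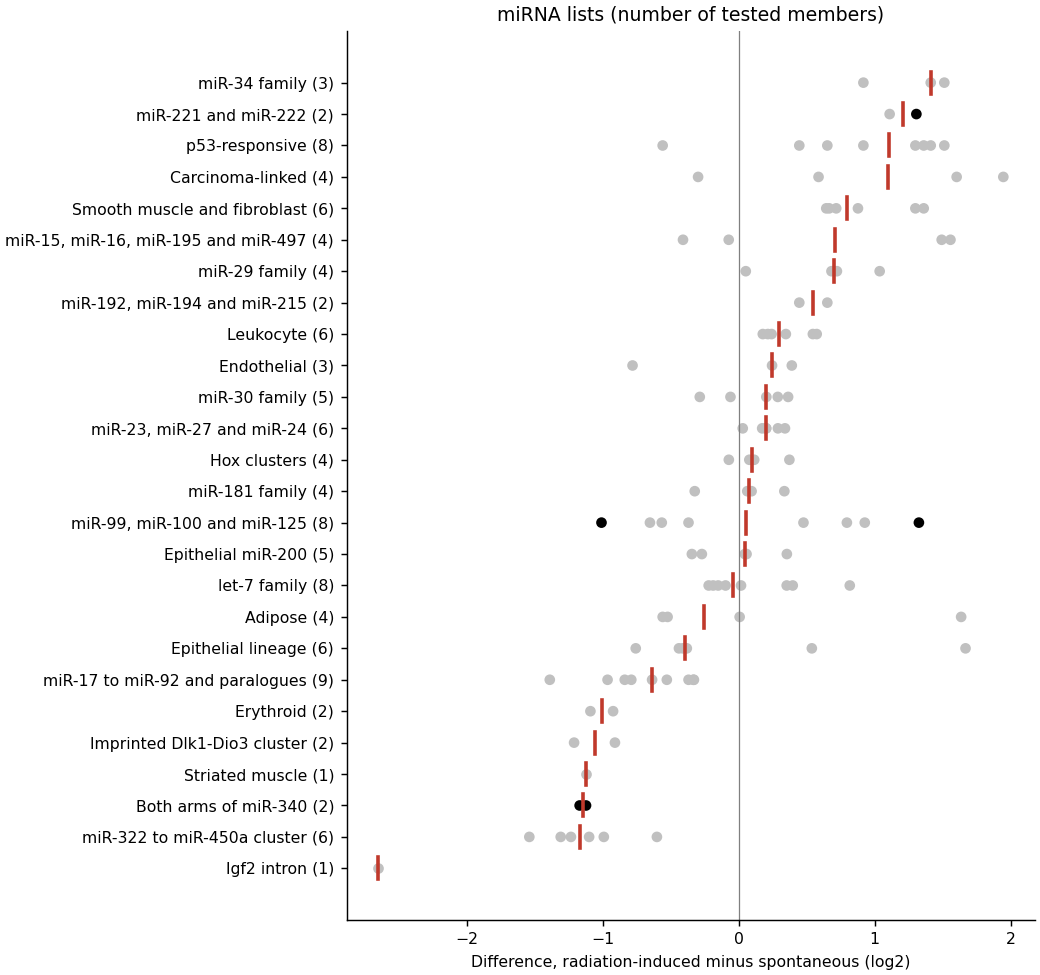
Each row is a list of miRNAs with its number of tested members, each point a member's log2 difference (radiation-induced minus spontaneous, n = 8 and 8) and each red bar the list's median. Black points passed the test: the miR-34 family has the highest median (1.41) among lists of 3 or more, and the miR-322 to miR-450a cluster the lowest (-1.17).

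Within hairpins, both arms leaned the same way. Of 23 hairpins with both arms tested, 22 had the same sign in both arms, 11 above 0 and 11 below, and let-7b was the exception (0.35 and -0.63). Levels varied to a different extent within the kinds: the median SD over the 180 tested miRNAs was 0.52 there and 0.77 in spontaneous carcinomas, and the SD was larger in the radiation-induced kind for 46 of 180. When the carcinomas lacking miR-200 were left out, these medians were 0.39 and 0.52. The spontaneous carcinomas come from 3 slides and 2 code letters, the radiation-induced ones from 2 slides and 1 letter, and the part of this in their spread was not tested.

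Detection, which does not depend on the scaling but moves with brightness, gave no call in the 16 carcinomas. It gave 2 calls when the carcinomas lacking miR-200 were left out. Of 128 miRNAs detected on 1 to 15 of the 16 arrays, 0 passed in Fisher's exact test after adjustment (0%, 10 at an unadjusted p under 0.05). All 10 were detected in more of the brighter radiation-induced arrays than of the spontaneous ones. The smallest exact p, 0.0014 (adjusted p = 0.0895), belonged to miR-222 and miR-335, each detected in all 8 radiation-induced carcinomas and in 1 spontaneous one. miR-335, encoded in an intron of Mest, ran from 3.29 to 8.35 (median 4.75) against 3.29 to 6.34 (median 3.29). miR-135b, miR-326 and miR-499 followed, each in 7 and 1 of 8 (p = 0.0101, adjusted p = 0.259). miR-29a* was detected in 5 and 0 of 8 (adjusted p = 0.41).

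**Figure D5:**
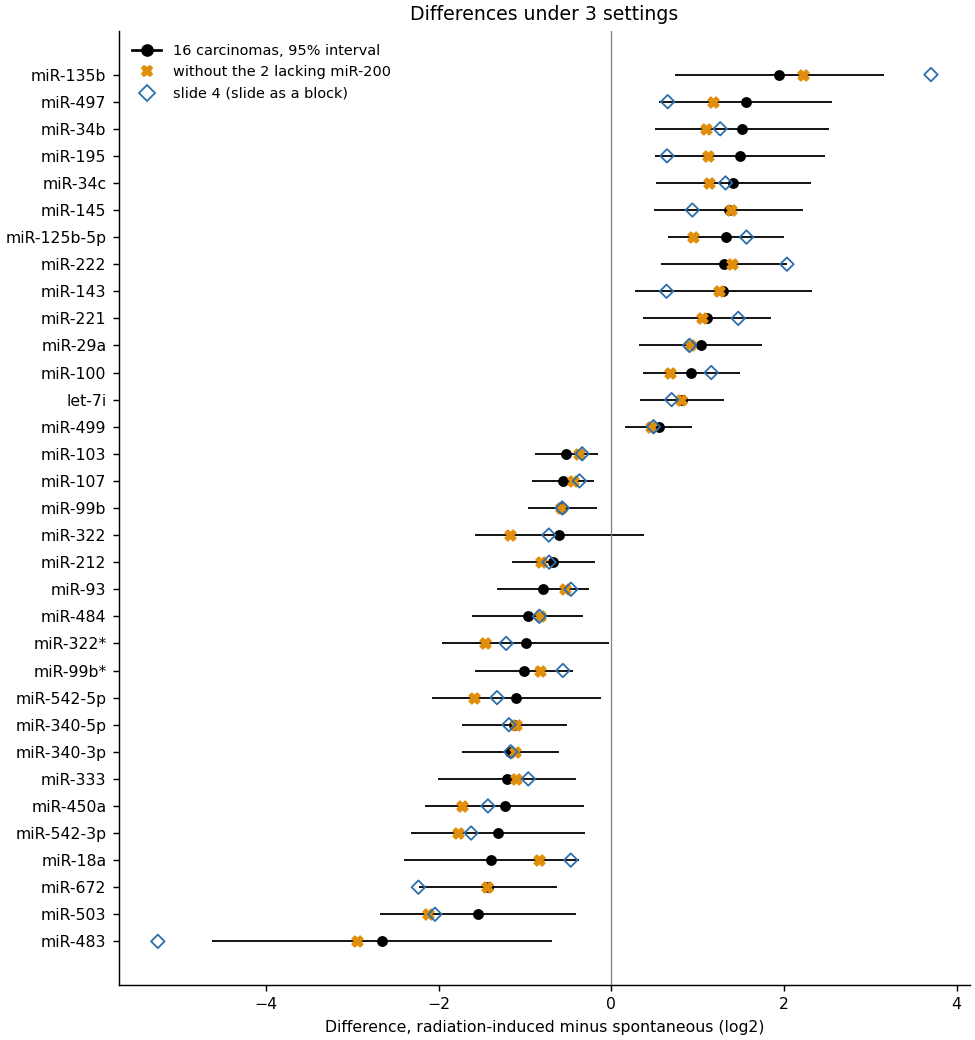
For the 14 leading miRNAs on each side and the other members of the miR-322 to miR-450a cluster, the plot gives the log2 difference (radiation-induced minus spontaneous) over the 16 carcinomas with its 95% interval (black), without the 2 carcinomas lacking miR-200 (orange crosses), and on slide 4, where 3 and 3 carcinomas share a slide (blue diamonds). All 3 values have the same sign for each miRNA shown; miR-135b and miR-483 are farther from 0 on slide 4 (3.70 and -5.25), miR-497, miR-195 and miR-18a nearer to 0.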

How the data were processed

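miRNA levels of 16 mammary carcinomas were measured on 1-colour Agilent arrays. Per the file headers, the authors' deposited scanner files come from Feature Extraction (Agilent, 9.5.1.1). The authors' deposited values are linear spot intensity with background subtracted and no normalization across arrays, per the file headers. The value table that the authors deposited, of total gene signal, was an alternative. Of the 7000 miRNA spots and 953 control spots per array, the control spots and outlier spots (2.95% of miRNA spots) were left out, and 1 saturated spot was kept. Signals were averaged per probe (938 probes), divided by each array's 75th percentile over the 199 probes detected (most spots well above background) on all 23 arrays, raised to a floor of 9.81 (log2 3.29) and log2-transformed. The floor is the median, over the 23 arrays, of each array's lowest detected signal. On every spontaneous array that lowest signal, 12.0 to 29.7, was above the floor, against 3.74 to 14.1 on radiation-induced ones, so differences near the floor may be understated or overstated. Each of 350 miRNAs was represented by its brightest probe. Of 180 tested, 178 had several probes, which differed in sign for 30.

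Differences were fitted in R 4.3.3 with limma 3.58.1 (files read by version 1.17.8 of data.table), with 8 arrays each and no covariate (total degrees of freedom 16.6). Errors are standard errors (SE) or standard deviations (SD). Exact permutation tests and Fisher's exact test were two-sided. Named were the 14 miRNAs on each side with the smallest p, those called with or without a slide block, miR-192 and miR-194, up to 4 members of each list discussed and the 6 with the smallest detection p. A few outside this rule were picked after their values were seen: miR-322, miR-322*, miR-99a, miR-125a-5p, miR-335, miR-7a and miR-7a*, as were let-7b, let-7c, let-7e, miR-205, miR-206, miR-133a, miR-598-3p and miR-29a*. Members and lists were chosen with earlier results of these data known. No counts underlie arrays, so their number limits precision. The labels do not state that codes are separate animals, so p-values may partly measure spread between carcinomas of 1 animal. The headers name build rn4, so RefSeq (GRCr8) served for names, sequences and neighbours only, and old names were read as arms by hand. Fits were tested on simulated data.

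Alternatives covered scaling, background, filter, floor, probe choice, the deposited table, slide, brightness as a covariate, array weights and leaving out arrays. The filter over 23 arrays, and slide block and omission of the 2 carcinomas together, were added after seeing the data.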

Additional observations from a re-analysis of the deposited data

Results flagged for a closer look

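A sample was taken as far from its group where its gap to the nearest other value exceeded Dixon's 95% limit for 8 samples. Of 64 groups of 8 values so examined, 6 had such a sample, and chance alone gives about 1 in 20, or 3.2. Spontaneous carcinoma 1, which lacks miR-200, stood above the other spontaneous carcinomas in 3 miRNAs: miR-222 (log2 5.56, next 3.92), miR-484 (7.33, next 5.74) and miR-18a (10.33, next 8.33). Radiation-induced carcinoma 4 stood above its kind in miR-672 (8.51, next 7.30). Spontaneous carcinoma 8 had miR-499 at 3.80 while the 7 others lay at the floor of 3.29. Radiation-induced carcinoma 2 was the brightest array of its kind before scaling (75th percentile 2032, next 1248).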

How the results depend on the processing

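The number of calls, 6 of 180, was within 1.5 times of that for slide 4 alone and the slide block with the carcinomas lacking miR-200 left out. The same held for total gene signal, a raised floor, the mean of all probes and limma's trend with robust settings. Of the 6 miRNAs, these settings called 2, 2, 5, 4, 4 and 6, in that order. The number of calls was 1 with slide as a block and against M-coded spontaneous carcinomas only. It was 0 with brightness as a covariate (median of all 0.19), quantile normalization and scaling from the 16 carcinomas. It was also 0 with both looser detection filters (at least 4 of 16 or 7 of 23 arrays) and no filter. The limma fits with 0 calls had 8 to 58 miRNAs at an unadjusted p under 0.05. With the percentile over all probes it was 14, all higher, where the median of all was 0.27. It was 21 without the carcinomas lacking miR-200, 35 with all 23 arrays, 54 with array quality weights, and 0 to 24 without 1 array. The centre moved most in 3 settings. No scaling gave 83 calls (all higher, median of all 0.85) and the deposited table gave 79 (all higher, median 0.87). Normexp gave 74 (7 higher, 67 lower, median -0.36), against 2 higher and 4 lower in the results above. Relative to each setting's median, 54, 55 of 55 and 49 of 56 named miRNAs kept their direction there. The causes were not tested.

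miR-194 passed as higher at 0.65 with all 23 arrays, 1.16 unscaled, 1.54 in the deposited table and 0.84 with array weights. With normexp it passed as lower, at -0.52 (adjusted p = 0.0234 in limma), and with the raised floor it was 0. The difference in miRNAs detected was 17.3 on slide 4, and that in brightness 344 there and 483 against M-coded carcinomas, neither past the exact test. Detection shares gave 2 calls without the carcinomas lacking miR-200.

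Signs turned in named miRNAs. Unscaled and in the deposited table the values were 0.38 and 0.37 for miR-107, 0.41 and 0.40 for miR-103, 0.15 and 0.13 for miR-93, 0.37 and 0.37 for miR-99b, 0.265 and 0.28 for miR-212, 0.53 and 0.47 for miR-15b, 0.86 and 0.84 for miR-16, 0.10 and 0.0802 for miR-20a, 0.64 and 0.60 for miR-210, 0.025 and 0.011 for miR-494, 0.33 and 0.31 for miR-322, 0.57 and 0.54 for miR-125a-5p, 0.19 and 0.19 for miR-7a, and 0.36 and 0.31 for miR-7a*. With normexp they were -0.30 for miR-222, -0.10 for miR-145 and -0.0374 for miR-335. Those that passed as lower there were miR-499 (-0.56, adjusted p = 0.0154 in limma), miR-192 (-0.48, 0.0265), miR-29c* (-0.61, 0.011) and miR-326 (-0.46, 0.034). The median of all was -0.36 in that setting. The raised floor gave 0 for miR-499, -0.0145 for miR-192 and -0.0242 for miR-29c*. On slide 4, alone or as a block, and with the block and omission together, miR-16 had 0.12, miR-20a 0.13, miR-29c* -0.55 and miR-210 1.46. Brightness as a covariate gave 0.28 for miR-16, -0.0699 for miR-29c*, 0.36 for miR-210 and 0.12 for miR-125a-5p. M-coded carcinomas only gave 0.12, -0.42 and 0.795 for miR-16, miR-29c* and miR-210. miR-16 had 0.225 with the percentile over all probes, and miR-29c* -0.0016 with the mean of probes. Without the carcinomas lacking miR-200, miR-29c* had -0.0938 and miR-210 0.23. Without 1 array, miR-210 ran from -0.60 to 0.00985, miR-29c* from -0.0800 to 0.18 and miR-16 from -0.14 to 0.00487. No paired analysis was possible because the codes do not pair carcinomas across kinds.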
